A study of Mus musculus with 2 samples.

Results

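The transcripts described here are annotated, protein-coding mouse mRNAs of 6000 bases or more that had at least 1 read in the adrenal gland. They were chosen by 3 deposited values: the class Known, the annotated length and the transcript type, together with a read in either count table. The rule found 1001 such transcripts, in 937 genes, among 22347 annotated transcripts with a read and 17240 that are protein coding. A further 31 annotated transcripts of 6 kb or more with reads are not protein coding and were left out. Total RNA of whole adrenal glands, with ERCC and SIRV spike-ins, was read by long-read sequencing in 2 libraries of 1 group, replicate 1 and replicate 2. The B6CASTF1/J mice, an F1 cross with a B6 and a CAST genome, were male, untreated and 2 months old, and reads of both genomes were placed on the mm10 build. The biosample labels number the animals 3 and 4, but both library descriptions carry the number 3, so separate animals are not shown. Spread between the libraries may therefore be technical, and each test below compares these 2 libraries and no conditions.

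Replicate 1 held 824186 reads on genes and replicate 2 held 656786, without spike-ins, so 1 read is worth 1.21 and 1.52 reads per 1000000 reads (CPM). The tissue label was checked against fixed marker lists. Adrenal cortex genes took 6.83% and 7.33% of the reads of replicates 1 and 2, and chromaffin cell genes took 1.13% and 1.25%, with every gene of both lists read. Adipocyte markers (0.962% and 0.472%) and erythroid markers (0.195% and 0.0819%) were higher in replicate 1. Each of the endothelial, immune, liver, kidney and Schwann cell lists stayed under 0.1% in both libraries, with Ptprc, Cd3e, Cd79a, Ttr, Umod, Slc12a1 and Slc34a1 at 0.

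A messenger RNA is long either because its protein is large or because its untranslated ends, mostly the 3′ untranslated region (3′ UTR), are long. The poly(A) tail is added downstream of a short signal, AATAAA in its commonest form, and many genes hold several such signals in a row, so that one coding sequence can be made with a short or a long 3′ UTR. Long-read protocols usually copy RNA from the poly(A) tail toward the 5′ end, and a copy that stops early lacks the first exons. In the deposited models, a read with every annotated junction is counted on the annotated (Known) transcript. A read with an unbroken part of an annotated chain of junctions is an incomplete splice match (ISM). Models that combine known splice sites in a new way are NIC, and models with a new splice site are NNC.

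The members took 11091 reads in replicate 1, or 1.35% of the library (Wilson 95% interval 1.32 to 1.37%), and 10103 reads in replicate 2, or 1.54% (1.51 to 1.57%). The mean was 1.44% ± 0.136 (SD, n = 2), beside 40.2% ± 3.95 for annotated coding transcripts of 2 to 6 kb. All intervals given are for counting error alone, because the files hold no molecular identifiers. Replicate 1 read 830 of the members and replicate 2 read 812, and 641 were read in both. Of the 360 read in 1 library only, 350 had at most 3 reads, which is the number a count of 0 allows, so their absence from the other library was not detectable at this depth. Sort1-201, the sorting receptor sortilin, had the most reads among these, with 9 in replicate 1 and 0 in replicate 2.

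Most members were thinly read. The median member had 4 reads over both libraries, beside 12 for transcripts of 2 to 6 kb. A single read was all that 258 members had, while 201 had at least 20 and 48 had at least 100. The 20 most read members held 34.8% of the members' reads in replicate 1 and 33.0% in replicate 2. In 624 of the 937 genes every annotated read fell on a member, and in 17 genes the members took under 10% of the annotated reads.

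The most read member was Soat1-207, at chr1:156424525-156474331 on the minus strand. Soat1 encodes sterol O-acyltransferase, which esterifies cholesterol for storage in lipid droplets, a store from which steroid hormones are made in the adrenal cortex. Soat1-207 had 397 reads in replicate 1 and 287 in replicate 2, or 482 and 437 CPM (mean 459 ± 31.6, SD, n = 2). It took 97.1% and 98.3% of the annotated reads of its gene.

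Others of the 20 most read are taken by function, first RNA binding and translation. G3bp1-201, whose protein nucleates stress granules, had 301 and 296 reads in replicates 1 and 2. Eif4g2-213, a translation initiation factor of the eIF4G family, had 290 and 293. Hnrnpu-201, a nuclear RNA-binding scaffold, had 276 and 251, and Ncl-201, the nucleolar protein nucleolin, had 113 and 116. Each of these 4 was close to level between the libraries in raw reads, although replicate 2 was the shallower library.

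Enzymes of signalling formed the next kind. Ppp2ca-201, the catalytic subunit of protein phosphatase 2A, had 333 and 249 reads. Ppm1a-201, a metal-dependent phosphatase, had 109 and 114 and took 79.6% and 78.6% of its gene's annotated reads, the rest being mostly on the shorter Ppm1a-208 (3900 bases). Mprip-204, which ties myosin phosphatase to actin filaments, had 113 and 117. A second member of that gene, Mprip-202 of 8718 bases, had 63 and 73, so both Mprip isoforms kept the same order in each library.

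Vesicle traffic, membrane and matrix proteins made up a further kind. Rab11b-201, a GTPase of recycling endosomes, had 185 and 189 reads, and Rab18-205, a GTPase found on lipid droplets and the endoplasmic reticulum, had 194 and 167. Tmem214-202, a membrane protein of the endoplasmic reticulum, had 107 and 115, and Chst2-201, a sulfotransferase of carbohydrate chains, had 95 and 108. Col4a1-201, a secreted chain of the collagen of basement membranes, had 130 and 137. Of these 5, Rab18-205 had the largest difference in raw reads between the libraries.

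Proteostasis, mitochondria and small-molecule metabolism formed the last kind. Cdc37-201, the co-chaperone that brings kinases to Hsp90, had 206 and 169 reads, and Zfand5-205, a zinc-finger protein that binds the proteasome, had 195 and 179. Dnajc15-202 (173 and 90) and Timm17a-201 (114 and 79) encode proteins of the mitochondrial import machinery. Glo1-206, glyoxalase I, had 240 and 167 reads, and Pafah1b2-201, a subunit of platelet-activating factor acetylhydrolase, had 103 and 101. The plot of levels shows both libraries for the 10 most read members.

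**Figure D1:**
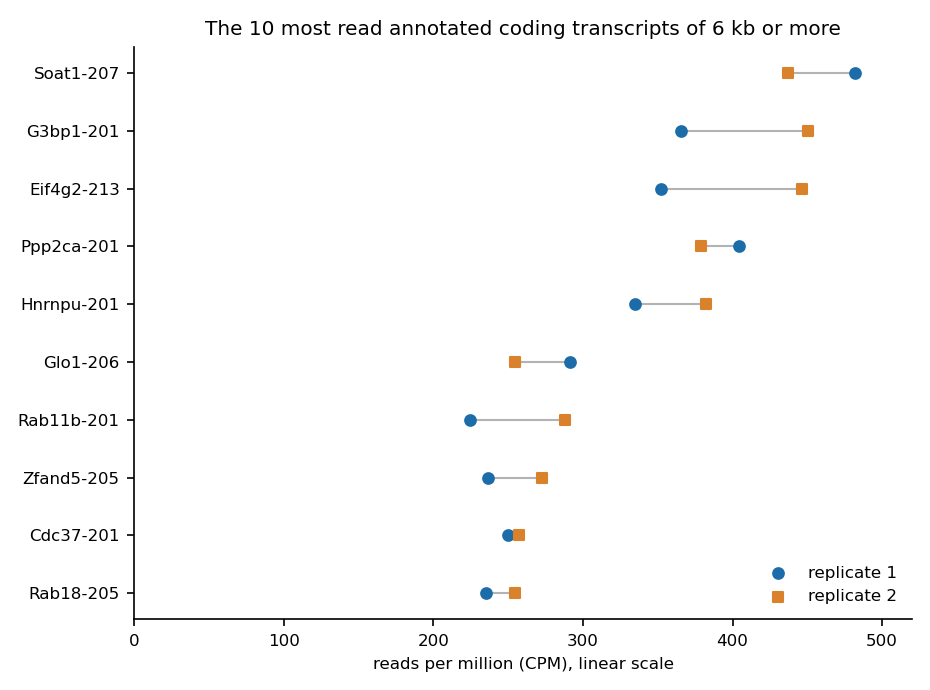
Level in CPM (linear axis) of the 10 most read members in replicate 1 (circles) and replicate 2 (squares), ordered by their mean, with a grey line joining the libraries of each. Soat1-207 leads at 482 and 437 CPM, and the 10th, Rab18-205, stands at 235 and 254 CPM.

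Proteins encoded by the most read members are mostly not large. Over all members the median coding sequence was 2546 bases and the median 3′ UTR, counted from after the last coding base, was 4395 bases. In transcripts of 2 to 6 kb these medians were 1569 and 1261 bases. The 3′ UTR made up at least 50% of the length in 645 members, which held 83.4% of the members' reads. A coding sequence of 6 kb or more was present in 73 members, with 1.42% of the reads.

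In most members the last exon is the longest part. It made up at least 50% of the length in 692 of the 1001 members (69.1%), against 50.8% of transcripts of 2 to 6 kb. The median last exon was 4693 bases, beside 1584 in transcripts of 2 to 6 kb, and last exons of 5 kb or more were present in 437 members with 68.9% of the reads. Soat1-207 has 16 exons and 8371 bases, of which 6591 are the last exon and 1596 the exons between the first and the last. Glo1-206 has 6 exons and 9865 bases, of which 9291 are the last exon and 382 lie between. Chst2-201 has 2 exons and nothing between them. The summed length of the inner exons is the part of an mRNA that a read must cover to show all its junctions. Its median was 2015 bases over all members. Only 54 members had inner exons of 6 kb or more in sum, and these held 232 reads, or 1.09% of all member reads.

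**Figure D2:**
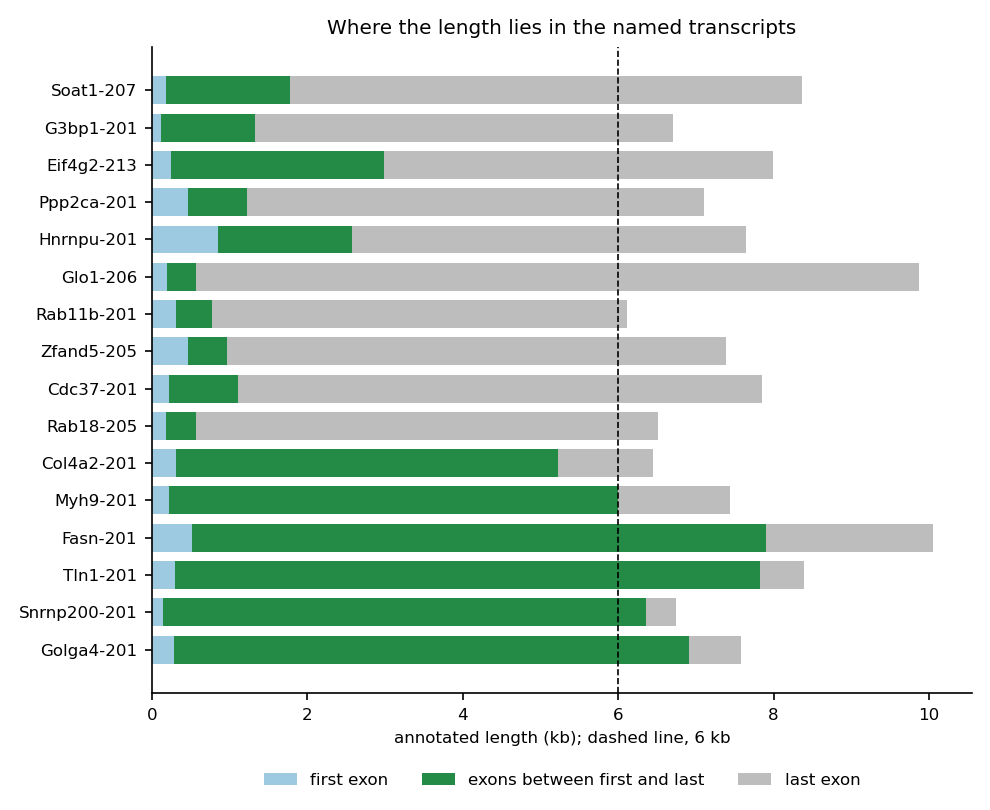
Annotated length in kb of the 10 most read members and of 6 named members with long inner exons, split into first exon (light blue), exons between first and last (green) and last exon (grey), with a dashed line at 6 kb. Grey dominates in the upper 10, such as Glo1-206 with a last exon of 9291 of 9865 bases, while green dominates in the lower 6, such as Tln1-201 with 7533 of 8393.

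The length of a Known row is that of the annotation, and the files do not give the ends of the single reads counted there. The ends of new models (ISM, NIC and NNC) of the same genes are given, 1 end per model, and they show where models that share a member's last splice site stop. Each read below carries the end of its model, and single reads of a model may have ended elsewhere. In transcripts of 2 to 6 kb the median such end, over reads, lay 0 bases before the annotated end in both libraries. Whether model ends close to an annotated end had been placed onto it was not tested, here or below. In replicate 1, 4213 reads of new spliced models used the last splice acceptor of a member, and 2564 of them (60.9%, Wilson 95% interval 59.4 to 62.3%) ended over 1 kb before the member's annotated end. In replicate 2 this was 2546 of 4327 reads (58.8%, 57.4 to 60.3%). Among transcripts of 2 to 6 kb, treated the same way, the share was 12.7% (12.4 to 12.9%) and 9.88% (9.63 to 10.1%). The members' reads came from 2667 models in replicate 1 and 2827 in replicate 2. Reads of 1 model share its end, so the intervals for ends count reads and do not cover the spread over models. An end over 1 kb short needs a last exon longer than that, so the members were also split by the length of the last exon. The transcripts of 2 to 6 kb were not split. Of these, 71.9% have a last exon of 1 kb or more and 13.7% one of 3 kb or more.

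The early ends belonged mainly to members with a long last exon. With a last exon of 3 kb or more, 86.8% (85.5 to 88.1%) and 85.8% (84.4 to 87.1%) of such reads ended over 1 kb short, and 11.5% and 12.9% ended within 100 bases of the annotated end. With a last exon under 3 kb, 22.2% and 20.3% ended over 1 kb short and 64.1% and 65.3% ended within 100 bases. If the annotated chain of a member with a last exon of 3 kb or more is cut at these ends, its median length is 3813 bases in replicate 1 and 3900 in replicate 2. In 14.4% and 16.6% of those reads it would still be 6 kb or more. Taking the 189 members that had 5 or more such reads per library, most reads ended over 1 kb short in both libraries in 101 and within 100 bases in both in 56. In 87 of the 189, no read of a new model in either library ended within 100 bases of the annotated end.

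Several members showed nearly the same positions in both libraries. Eif4g2-213 had 142 and 152 reads of new models on its last exon of 5008 bases, all in models that ended at least 2811 bases early. Mprip-204 had 69 and 92, all in models ending within 10 bases of a point 4631 bases early. Soat1-207 had 56 and 43, at least 4007 and 3960 bases early. Glo1-206 had 11 and 10, all at least 7930 bases early, which would leave at most 1935 of its 9865 bases. Col4a2-201 stood at the other side: its 69 and 71 reads were all in models that ended within 100 bases of the annotated end. Other members differed between the libraries, and 2 are named after their values were seen. In Opa1-206, 49 of 50 such reads in replicate 1 and 6 of 36 in replicate 2 ended over 1 kb short. In Osbpl3-204 it was 14 of 37 and 50 of 53. In 32 of the 189 members neither kind of end held most reads in both libraries.

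**Figure D3:**
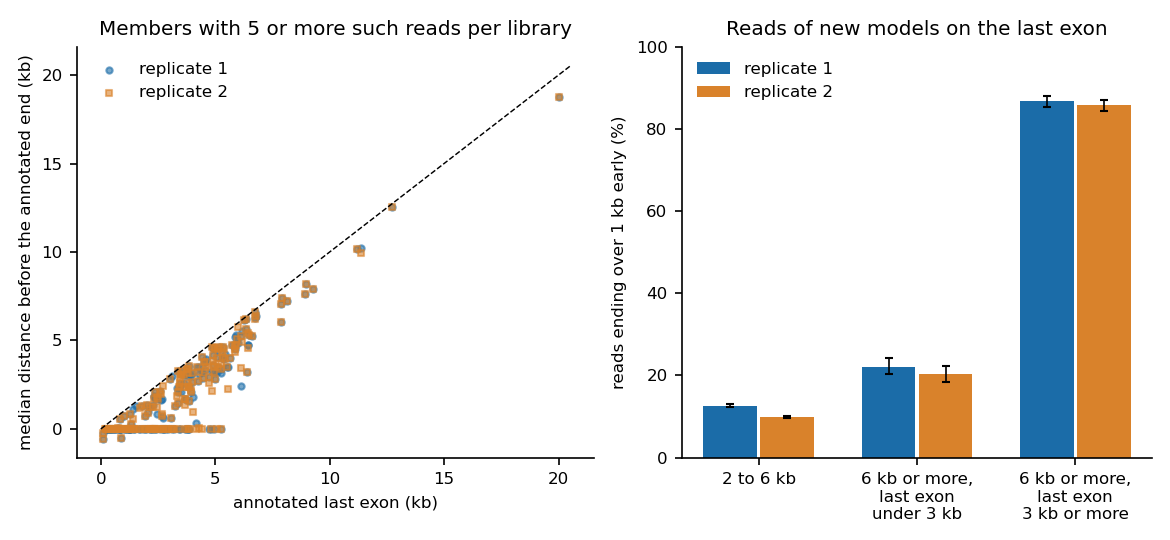
Left, for the 189 members with at least 5 reads of new models on their last exon in each library, the median distance over reads by which their models end before the annotated end (kb) against the annotated last exon (kb), in replicate 1 (circles) and replicate 2 (squares), with the dashed line of equal values as the most that is possible. Right, the share of such reads in models that end over 1 kb early (%), with Wilson 95% intervals, for transcripts of 2 to 6 kb and for members by length of the last exon. It was 86.8% and 85.8% in members with a last exon of 3 kb or more, and 12.7% and 9.88% in the shorter transcripts. The shorter transcripts were not split by last exon, and 13.7% of them have one of 3 kb or more.

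The sequence before those ends was read from the GENCODE M21 transcripts (mm10). Single early ends were examined in 23 members. They came from the 20 most read members and from the 5 longest with at least 10 reads per library. Other named members with an early end, within and outside those groups, were left out of this count. Of the 23 members, 12 held a poly(A) signal (AATAAA, or the variant ATTAAA) in the last 30 bases before the most read early end. Of these 23 ends, 15 lay within 10 bases of the annotated end of another transcript. Shown are 5 with a signal and 2 without, chosen among the 20 most read members to show both cases, 5′ to 3′ on the transcript strand, with the signal in capitals. All lie in the 3′ UTR, in the last exon.
Soat1-207, 5268 bases early: gatgaAATAAAtgactatgtgatcatttgt
Glo1-206, 7930 bases early: ggctgaAATAAAgctaacactgtttagtac
Cdc37-201, 6207 bases early: tgtccAATAAAcagttccaggtgctggagg
Mprip-204, 4631 bases early: tttggttttttATTAAAtcttgcacaaaag
Tmem214-202, 1717 bases early: ctcctggggagAATAAAgacacagactgga
Eif4g2-213, 2811 bases early: ttaaataattactatataactttacgcaca
G3bp1-201, 4515 bases early: ggtagagtttttcatgttttatttgtattt

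The Soat1 end (chr1:156429793-156429822, minus strand) had 33 reads of new models in replicate 1 and 28 in replicate 2, and lies within 10 bases of the annotated end of Soat1-201. The Glo1 end (chr17:30592866-30592895, minus strand) had 9 and 10 and is shared by 6 other annotated Glo1 transcripts. The Mprip end (chr11:59776194-59776223, plus strand) had 69 and 92 and is that of 4 other Mprip transcripts. The Tmem214 end (chr5:30877434-30877463, plus strand; 15 and 13 reads) also lies at the end of 2 other transcripts. These 4 model ends thus lie at annotated ends of the gene, on other transcripts than the member. Whether the single reads ended at those bases was not tested.

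Other ends had no annotated counterpart. The Eif4g2 end (chr7:111070561-111070590, minus strand) was the most read of the 7, with 108 and 114 reads within 10 bases of it, and holds neither signal in these 30 bases. The Cdc37 end (chr9:21139429-21139458, minus strand) had 0 and 25 reads, while in replicate 1 the 22 such reads ended at least 6261 bases early. The G3bp1 end (chr11:55500294-55500323, plus strand) had 11 and 14, holds no signal, and is followed by 16 A among the next 20 bases, a composition at which oligo(dT) can prime within a transcript. The part of such priming in this end was not tested.

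Over all members, signals were common before the early ends. Of 627 distinct positions of early ends in replicate 1, 300 (47.8%) held AATAAA or ATTAAA in the last 30 bases, and in replicate 2 it was 302 of 619 (48.8%). Ends a few bases apart counted as distinct positions, so neighbouring windows can share sequence. The same motifs were in 2.92% of all consecutive 30-base windows of these last exons over 1 kb from the end, and before 74.9% of the annotated ends of the same 705 members. AATAAA alone was in 32.1% and 33.9% of the windows at early ends and in 1.58% of all windows. The reverse complements TTTATT and TTTAAT were in 63 of 627 (10.05%) and 9.69% of the windows at early ends and in 3.91% of all windows, and both kinds of motif are rich in A and T. A run of 6 A within the next 20 bases followed 13.2% and 11.8% of the early ends, against 1.18% of all windows. Reads at the early ends of members were split between annotated and other positions: in replicate 1, 1618 of the 2564 reads lay within 10 bases of another annotated end, and in replicate 2, 1592 of 2546.

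The share of full annotated chains was taken per gene as reads on its members divided by those plus all ISM reads of that gene. It was 77.7% in replicate 1 (11091 of 14277 reads, Wilson 95% interval 77.0 to 78.4%) and 76.7% in replicate 2 (10103 of 13180, 75.9 to 77.4%), with a mean of 77.2% ± 0.729 (SD, n = 2). A gene enters this count only if a full chain of it was read, which raises the share. Reads of the deposited class Genomic were not counted: member genes had 1793 and 1576, in models of 1826 and 2358 bases at the median. The share thus sets full chains against ISM reads alone and does not measure how many copies were complete. Over all 1516 genes with an annotated coding transcript of 6 kb or more and any member or ISM read, 579 of them without a member, the share was 71.2% and 69.4%. With 2 libraries the smallest two-sided exact sign-flip p is 0.5, so no test over samples was possible. In the 130 genes where each library had 20 or more such reads, the median share was 91.0% and 93.2%. The share was over 90% in both libraries in 61 of those genes, under 50% in both in 18 and under 20% in both in 7.

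Across genes the share fell with the inner length of the transcript at every step. Spliced genes whose most read member has under 1 kb of inner exons had full-chain shares of 95.0% and 95.1%. The share was 74.5% and 75.8% at 2 to 3 kb, 45.5% and 43.3% at 4 to 5 kb, and 17.4% and 19.1% at 6 kb or more, with no overlap of the Wilson intervals of neighbouring classes in either library. By annotated length there was no such order: the share was 75.6% and 75.3% at 6 to 7 kb, 81.0% and 78.6% at 7 to 8 kb, 80.0% and 80.7% at 8 to 10 kb, and 68.9% and 64.1% at 10 kb or more. Genes in a class share their libraries and differ in depth, so these shares describe the genes read here.

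Genes led by a transcript of 6 kb or more were then compared at equal inner length with genes led by a shorter one. Here all annotated coding reads of a gene counted as full chains, and its most read coding transcript set the class. Under 1 kb of inner exons the share was higher in genes led by a long transcript (95.5% and 95.7% against 92.6% and 92.6%). At 1 to 2 kb of inner exons the share was 89.4% and 89.9% in the former and 89.9% and 91.0% in the latter. At 3 to 4 kb it was 63.1% and 59.1% against 76.8% and 78.8% when reads were pooled, but the median over genes (20 or more reads in both libraries) ran the other way (80.0% and 82.8% against 73.9% and 76.0%). At 4 to 5 kb it was lower in genes led by a long transcript by both measures: 46.3% and 44.6% against 61.9% and 60.2% pooled, with medians of 33.3% and 37.5% over 7 genes against 62.2% and 62.2% over 12. The pooled Wilson intervals overlapped in both libraries at 1 to 2 kb and 5 to 6 kb, and in neither library in the other classes compared. No test of the difference was run. At 5 to 6 kb it was 35.6% and 31.7% against 34.8% and 35.1%.

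Detection followed inner length too. GENCODE M21 as deposited holds 3681 coding transcripts of 6 kb or more, and 27.2% of them were read. The share was 37.5% with inner exons under 1 kb, 39.8% at 1 to 2 kb and 7.13% at 6 kb or more. Within genes that had at least 20 reads of any kind, it was 89.6%, 70.5% and 18.1% for the same classes. The longest inner chain read was that of Ranbp2-201, a nuclear pore protein, with 8784 bases between its outer exons and 1 read in replicate 1.

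**Figure D4:**
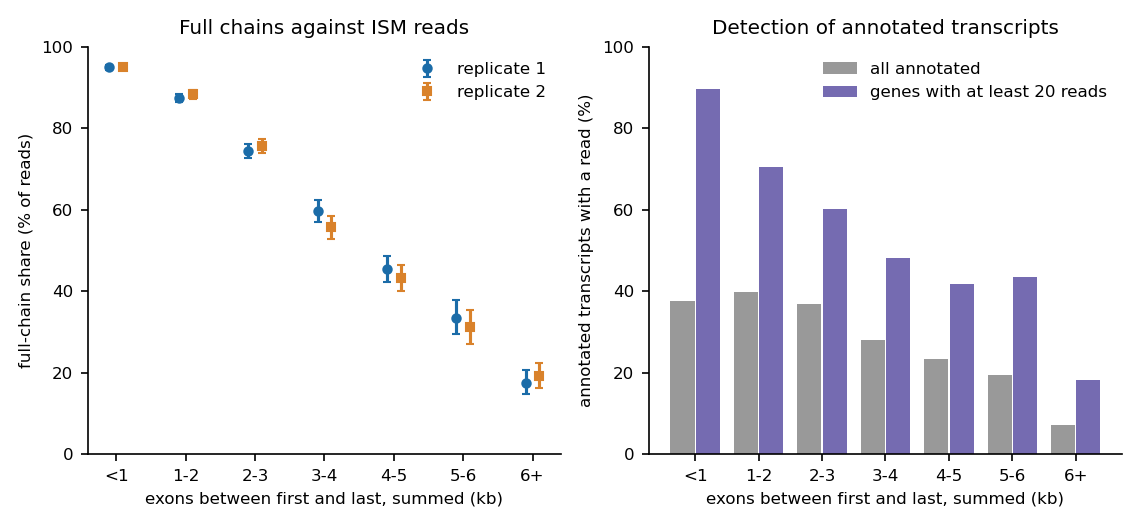
Left, full-chain share of member genes (% of member plus ISM reads) by summed length of the exons between the first and the last (kb), in replicate 1 (circles) and replicate 2 (squares) with Wilson 95% intervals, falling from 95.0% and 95.1% to 17.4% and 19.1%. Right, share of annotated coding transcripts of 6 kb or more that had a read (%), for all of them (grey) and for those of genes with at least 20 reads (purple), falling from 37.5% to 7.13% and from 89.6% to 18.1%.

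Among the 50 genes with at least 50 member plus ISM reads in each library, the highest shares belonged to genes of few or short inner exons. Chst2, whose 2 exons leave no shorter spliced chain to be an ISM, had 95 and 108 full chains and no ISM read. Mrpl17, a protein of the mitochondrial ribosome, had 103 and 67 and none, with 69 bases of inner exons. Rab22a, an endosomal GTPase, had 56 and 50 and none. Spred1, an inhibitor of Ras signalling, had 100% and 98.4%, and Tsn, the nucleic acid-binding protein translin, had 97.9% and 100%.

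The lowest shares belonged mostly to genes of large proteins with many exons. Fasn, fatty acid synthase, is made of 43 exons with 7386 bases between the outer ones: it had 43 full chains and 123 ISM reads in replicate 1 (25.9%, Wilson 95% interval 19.8 to 33.1%) and 28 and 145 in replicate 2 (16.2%, 11.4 to 22.4%). The difference between the libraries did not pass (Fisher's exact test over all genes, adjusted p = 0.657). Fasn is a gene of lipid synthesis that adipocytes express at high level, and the adipocyte markers were higher in replicate 1, as given above. Full chains of Fasn were also more numerous in replicate 1 (43 against 28). Its ISM reads, which outnumbered the full chains in both libraries, went the other way (123 against 145). The sum of full chains and ISM reads of Fasn was larger in replicate 2, although it was the shallower library. In bulk tissue fewer cells of a type and less RNA per cell cannot be told apart, and the part of fat in the Fasn reads was not tested.

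Collagens filled much of the rest of that list. Col5a3, a fibrillar collagen chain, had shares of 23.1% and 34.8% with 67 exons. Col4a2 had 33.3% and 37.5% and Col4a1 had 59.1% and 55.5%, with 48 and 52 exons. These paired chains of basement membrane collagen start from opposite strands of one stretch of chromosome 8, and their reads were 43 and 48 for Col4a2-201 and 130 and 137 for Col4a1-201. Slc6a6, the taurine transporter, had 55.2% and 63.1% with 1777 bases of inner exons, but only 11 of its 64 ISM reads in replicate 1 and 10 of 52 in replicate 2 were part of its member's chain. The Wilson intervals of both libraries overlapped for each of these 4 genes.

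ISM reads of the member genes were mainly short at the 5′ end. The deposited suffix class, in which the 3′ part of a chain is present, held 73.4% of 3186 ISM reads in replicate 1 (Wilson 95% interval 71.9 to 74.95%) and 76.1% of 3077 in replicate 2 (74.6 to 77.6%). The prefix class, with the 5′ part present, held 13.9% and 13.6%. In all other genes the suffix class held 67.2% and 68.0%, and the prefix class 7.53% and 9.66%. The chain of 76.6% and 76.6% of the ISM reads was an unbroken part of a member's chain, and 83.3% and 84.5% of those lacked introns at the 5′ end alone. Such reads kept a median of 47.1% and 46.7% of the member's introns, in models of 3208 and 3453 bases at the median.

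New models of 6 kb or more did exist. In member genes, 364 of 5536 reads of ISM, NIC and NNC models in replicate 1 (6.58%, Wilson 95% interval 5.95 to 7.26%) and 444 of 5477 in replicate 2 (8.11%, 7.41 to 8.86%) were in models of that length. The longest had 9756 and 9775 bases. Over all annotated genes the shares were 0.619% and 0.930%.

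Gene functions were described with 11 lists of large-protein and adrenal functions. Of 411 list genes, 326 have an annotated coding transcript of 6 kb or more, and 115 of these had a member. The lists held 131 of the 1001 members, Soat1-207 and Eif4g2-213 among them, and 870 lay outside. Of the 10 list members with enough reads for the test between libraries described below, 0 were called and 1 had an unadjusted p under 0.05. Over all 7022 transcripts tested, 259 were called and 1466 had an unadjusted p under 0.05.

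Steroid and lipid metabolism had the most reads, 486 and 336 on 15 members, of which Soat1-207 gave 397 and 287 and Fasn-201 gave 43 and 28. Pde3b-201, a phosphodiesterase of cyclic AMP, had 11 and 5. The RNA processing and translation list had 309 and 310 reads, mostly on Eif4g2-213. Nup205-201, a nuclear pore scaffold, had 10 and 2, and Snrnp200-201, a helicase of the spliceosome, had 2 and 6. In the matrix and basement membrane list (202 and 200 reads), Col4a1-201 and Col4a2-201 were followed by Lamc1-201, a laminin chain, with 11 and 8.

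Cytoskeleton, transport and transporter lists were read at lower levels. Of 32 genes of the actin, spectrin and myosin list with a long annotation, 8 had a member, with 38 and 26 reads in all: Myh9-201 (non-muscle myosin) had 18 and 9, Tln1-201 (talin, which links integrins to actin) 8 and 4, and Iqgap1-201 (an actin-binding scaffold) 5 and 4. The microtubule and transport list had 74 and 80 reads, led by Kif5b-201, a kinesin motor, with 51 and 60, then Cltc-202, clathrin heavy chain, with 16 and 11, and Golga4-201, a golgin, with 2 and 5. The channel and pump list had 43 and 37 reads, of which Slc12a2-201, a sodium, potassium and chloride cotransporter, had 28 and 31. Atp2b1-201, a calcium pump of the plasma membrane, had 3 and 2. Counts this low order the members only loosely.

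Signalling, adhesion, chromatin, protein turnover and secretion lists had few full chains. Kinases and signalling scaffolds had 43 and 46 reads on 18 members, led by Adcy5-201, an adenylyl cyclase, with 11 and 10, then Irs2-201, an insulin receptor substrate, with 6 and 8, and Dock1-201, an activator of the GTPase Rac, with 5 and 7. Adhesion and endocytic receptors had 39 and 30, led by the plexins Plxnd1-201 (7 and 8) and Plxnb2-202 (6 and 7), with Sort1-201 at 9 and 0. Chromatin and transcription had 16 and 18, with Arid1b-207, a subunit of the SWI/SNF remodeller, at 3 and 4 and both long forms of Smarca4, an ATPase of that remodeller, at 4 and 3 (Smarca4-202) and 2 and 3 (Smarca4-201). Ubiquitin and protein turnover had 6 and 7, with the ubiquitin ligase Ubr3-201 at 3 and 3 and Trip12-206 and Ubr1-201, ligases too, at 0 and 1 each. The secretion and neuronal list had 6 and 8, with Stxbp5-201, a syntaxin-binding protein, at 1 and 3, and the vesicle release genes Unc13b-201 and Syt7-202 at 0 and 2 and at 1 and 1.

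The share of full chains differed widely among the lists, beside 77.7% and 76.7% over all member genes. It was 68.4% and 61.3% for steroid and lipid metabolism and 59.0% and 61.8% for RNA processing and translation. For the matrix list it was 47.5% and 47.6%, and for the actin, spectrin and myosin list it was 24.4% and 21.7%. It was lowest for chromatin and transcription, with 20.0% of 80 reads and 18.4% of 98. These pooled shares did not follow the order of median inner length. That median was 4937 bases in the chromatin list and 5185.5 in the matrix list. It was 5832 in the actin list and 6487.5 in the RNA processing list. The shares pool reads, while the median counts each member once. In the RNA processing list a single member, Eif4g2-213 with 2741 bases, held most of the reads. Of the 117 and 127 ISM reads of Eif4g2, 27 and 21 were part of its member's chain.

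Some genes of large proteins had ISM reads and no full chain, and those named next were chosen after their values were seen. Of the 211 list genes with a long annotation and no member, 31 had at least 10 ISM reads over both libraries. Lrp1, an endocytic receptor of 89 exons, had 21 and 21 ISM reads and its only annotated coding transcript of 6 kb or more was at 0 in both libraries. Dync1h1, the heavy chain of cytoplasmic dynein, had 11 and 19, and Acaca, the acetyl-CoA carboxylase that supplies fatty acid synthase, had 8 and 14. Sptan1, spectrin alpha, had 6 and 12. Their inner exons sum to over 6 kb in each annotated coding form of 6 kb or more. In such forms Ncam1 (9 and 12 ISM reads), a neural adhesion molecule, and Kcnma1 (13 and 12), a calcium-activated potassium channel, have 2929 and 3227 bases at most.

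Families given by gene symbol were described after the values were seen. Zinc-finger genes of the Zfp, Zkscan and Zscan symbols gave 30 members (3.00%), beside 2.91% of transcripts of 2 to 6 kb, with 70 and 110 reads. Solute carriers gave 24 (2.40%, beside 2.19%), with 223 and 213 reads and Slc6a6-201 at 79 and 89. Kinesins gave 8 (0.799%, beside 0.160%) and collagens 6 (0.599%, beside 0.120%). The kinesins, collagens and plexins had median inner lengths of 2886, 4949.5 and 5543 bases, against 865 in the zinc fingers. Among the 17 members with a single exon, which have no junction to match, Purb-201, a single-stranded DNA- and RNA-binding protein, led with 46 and 66 reads.

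The longest members read at least 10 times in each library owed their length to the last exon. Hnrnpr-207, an RNA-binding protein of 21452 annotated bases, had 19 and 22 reads and a last exon of 20029 bases. It took 20.0% and 25.9% of its gene's annotated reads, behind Hnrnpr-204 of 2543 bases with 41 and 37. Serbp1-201 (15474 bases, an RNA-binding protein) had 19 and 14 reads and took 17.0% and 15.6%. Pnpla8-201 (13507 bases), a phospholipase, had 91 and 79 and every annotated read of its gene. Exoc5-207 (12699 bases), a subunit of the exocyst, had 12 and 16, and Mettl16-205 (12584 bases), an RNA methyltransferase, had 28 and 25. New models on the last exon of Hnrnpr-207 (10 and 10 reads) ended 18766 bases before its annotated end in both libraries, and those of Pnpla8-201 (29 and 15) at least 10039 bases before it.

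The libraries were compared by a two-sided exact binomial test of each transcript's reads against TMM-scaled library sizes, adjusted by Benjamini-Hochberg over all 7022 annotated transcripts with at least 20 reads in sum. A call needed a ratio of 2-fold or more besides an adjusted p below 0.05. Over all transcripts 3.69% were called, 2.44% with the higher level in replicate 1 and 1.25% in replicate 2. Of 201 members tested 1 was called: Zfp651-201, a zinc-finger protein, with 15 reads in replicate 1 and 39 in replicate 2 (18.2 and 59.4 CPM). Its log2 ratio was 1.58, with an exact binomial adjusted p of 0.00194.

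On the adjusted p alone, which 10.3% of all transcripts passed, 5 members did. Besides Zfp651-201, 3 of them are named here, after their values were seen. Dnajc15-202 fell from 173 to 90 reads (log2 ratio -0.69, exact binomial adjusted p = 0.00346). Abhd2-201, a serine hydrolase, rose from 69 to 95 reads and Tspan5-201, a tetraspanin, from 51 to 72. An unadjusted p under 0.05 was reached by 22 of the 201 members, beside 1466 of all 7022 transcripts tested.

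The median log2 ratio of the 201 members was 0.19, beside 0.00 over all transcripts tested, 0.15 for coding transcripts of 2 to 6 kb and -0.27 for those under 2 kb. The members thus sat slightly to the side of replicate 2, as did the 2 to 6 kb class. Scaling by DESeq2 size factors put the medians at 0.09 for members and -0.10 for all, and library totals put them at 0.27 and 0.08.

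The full-chain share of genes was compared between the libraries by Fisher's exact test, adjusted over the 4470 genes that had 20 or more annotated coding plus ISM reads in both. A call needed shares 10 percentage points or more apart besides an adjusted p below 0.05, which 0.805% of all genes tested reached, 0.559% with the larger share in replicate 2 and 0.246% in replicate 1. Of 156 member genes 0 were called and 0 passed the adjusted p alone, which 1.25% of all genes did. An unadjusted p under 0.05 was reached by 6 of the 156, beside 295 of all 4470 genes tested. No other tool was run for this test. The median difference over the member genes, replicate 2 minus replicate 1, was 0.0245 percentage points.

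Members just inside the threshold of 6000 bases and transcripts just outside it are given as a description. Inside it, Sec63-201 (6032 bases), a protein of the translocon of the endoplasmic reticulum, had 80 and 53 reads, Spred1-201 (6016) 54 and 63, and Kif5b-201 (6032) 51 and 60. Outside it, Ppp1cb-201 (5962), a catalytic subunit of protein phosphatase 1, had 230 and 216. Mlec-201 (5955), the lectin malectin, had 120 and 126, and Agpat3-201 (5980), an acyltransferase of phospholipid synthesis, had 104 and 85.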

How the data were processed

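The deposited counts are whole numbers of reads per transcript model, 1 table per library, with no normalization, and the other deposited columns give each model's exons and length. Per the file headers and notes, reads were aligned to mm10 and annotated with GENCODE M21, and TALON wrote the models. The aligner, the platform and tool versions: not given in the sources used here. Coding lengths and sequences came from GENCODE M21.

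Reads on spike-ins were left out, and depth was 824186 and 656786 reads. Shares carry Wilson 95% intervals, and each log2 ratio sets replicate 2 over replicate 1, from TMM-scaled CPM plus 1 (edgeR 4.0.16, R 4.3.3, scipy 1.17.1). The quasi-likelihood test of edgeR could not be fitted with 1 group, so exact binomial and Fisher's exact tests, tested on simulated data, were used. DESeq2 1.42.0 gave alternative size factors. Members and lists were chosen with earlier results of these data known.

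Named are the 20 members of highest mean CPM, the 3 of highest mean CPM in each list, the 5 longest with at least 10 reads per library, the 5 highest and lowest full-chain shares with at least 50 reads per library, called members, and 3 on either side of 6000 bases. The inner length is the sum of exons between the first and the last. Ends of new models, motifs, 3′ UTR lengths and symbol families were added after seeing the data.
A few named items were not reported.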

Additional observations from a re-analysis of the deposited data

How the results depend on the processing

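With members cut at 5000 bases the members' share of reads was 2.95%, at 8000 bases 0.395%, over annotated reads alone 1.88%, and with members of at least 5 reads in each library 1.27%. Leaving out 1 library gave 1.35 to 1.54%. The full-chain share was 81.5% with only ISM models inside a member's chain, 80.0% with all annotated reads as full chains, 70.3% over all genes with a long annotation and 74.4% without the 10 genes of most reads. It was 76.7 to 77.7% with 1 library left out and 77.2% at 8000 bases. The median share over genes was 94.8% with at least 50 reads per library. The suffix share was 83.4% among ISM models with at least 2 exons, and 73.4 to 76.1% with 1 library left out. On the adjusted p alone 5 members differed between the libraries in place of 1. Zfp651-201 was the 1 member called under TMM, DESeq2 size factors, library totals, no filter and at least 50 reads. The count of member genes with a called difference in share was 0 under each of the 3 alternatives run. No paired analysis was possible because both libraries belong to 1 group. Depth limits the members: most had few reads, and ends of single Known reads were not analysed here.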
